A study of Mus musculus with 4 samples.

Results

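The genes described here are 42 genes of mitosis, the spindle and the kinetochore: G2/M cyclins with CDK1 and its phosphatases, mitotic kinases, spindle checkpoint and kinetochore genes, mitotic kinesins, condensin and chromosome genes, and the transcription factor *Foxm1*. They were picked by name for these roles, and all 42 stood among the 24346 genes of the deposited tables. They were measured by RNA-seq in 4 libraries of myeloid-derived suppressor cells (MDSCs) made *in vitro*, immature myeloid cells that restrain T cells. The value was FPKM, the number of fragments of a gene scaled to the length of its transcript and to the depth of the library. The study asked how granulocyte colony-stimulating factor (G-CSF) changes gene expression in MDSCs.

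Bone marrow cells of female C57BL/6J mice aged 6 to 8 weeks were cultured for 4 days with GM-CSF at 40 ng/ml, either without G-CSF (Control, n = 2) or with G-CSF at 5 ng/ml (G-CSF, n = 2). GM-CSF was thus common to both groups. The cultures were not sorted and are mixtures of myeloid cells at several stages, and the study calls the libraries biological replicates. The labels do not say which mice or cultures each replicate came from, so the p-values measure the spread between these libraries. The depth estimated from the values was 13.4 and 14.2 M reads in the Control libraries and 12.4 and 15.6 M in the G-CSF libraries. Each mitosis gene had between 171 and 17840 estimated reads in a library. The myeloid identity given by the labels was checked on marker genes. *Itgam* (CD11b) stood at 519.8 and 515.4 FPKM in the Control libraries against 395.2 and 415.6 under G-CSF, and *S100a8*, a calcium-binding protein of myeloid cells, had between 25565 and 35613 FPKM. The labels also mention liver in the RNA extraction, but 6 of 8 hepatocyte markers, *Alb* and *Apoa1* among them, were listed at 0 in every library, and the most abundant, *Apoa2*, was between 0.805 and 1.42 FPKM.

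A cell enters mitosis when cyclin B and CDK1 become active, and the polo and Aurora kinases then drive centrosome separation, spindle assembly and chromosome condensation. Kinetochores tie chromosomes to spindle microtubules, and the spindle checkpoint holds back the anaphase-promoting complex (APC/C) until every chromosome is attached. Many of these genes are transcribed late in the cell cycle, under FOXM1, B-MYB and the MuvB complex. In bone marrow, dividing cells are mostly progenitors and early granulocyte precursors, and mature neutrophils no longer divide.

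The promoters of the mitosis genes are shown as a description, and no link between their letters and the change with G-CSF was tested. Promoters of such genes often hold the cell cycle genes homology region (CHR), searched here as TTTGAA or TTCGAA, and the CCAAT box, the element recognised by NF-Y. Both were searched on both strands in 300 bases, from 250 before to 50 after the start site, and the letters TTCGAA read the same on either strand. RefSeq (GRCm38.p6) held 35 promoters for 33 of the 42 genes. The stretches run 5′ to 3′ along the gene over 135 bases, the last 25 of them from the start site on, with CHR and CCAAT letters in capitals (ATTGG and TTCAAA are the same letters read from the other strand). The first set is of genes that were higher with G-CSF. *Cdc20* (chr4:118437319-118437453, minus strand) has a CHR at -18 between a pair of CCAAT boxes. *Cdk1* (chr10:69352888-69353022, minus strand) has CHR matches at -71 and -15. *Kif11* (chr19:37376272-37376406, plus strand) has a CHR at -19 and *Bub1* (chr2:127831835-127831969, minus strand) has a CHR at 14, downstream of the start. *Ccnb1* (chr13:100786462-100786596, minus strand) has no CHR in these letters and a pair of CCAAT boxes at -99 and -67.
Cdc20: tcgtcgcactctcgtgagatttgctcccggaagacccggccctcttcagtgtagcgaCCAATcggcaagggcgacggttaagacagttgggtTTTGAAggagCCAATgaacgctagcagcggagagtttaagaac
Cdk1: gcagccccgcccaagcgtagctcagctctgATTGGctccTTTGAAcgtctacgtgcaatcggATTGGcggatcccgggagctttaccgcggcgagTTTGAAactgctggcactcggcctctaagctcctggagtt
Kif11: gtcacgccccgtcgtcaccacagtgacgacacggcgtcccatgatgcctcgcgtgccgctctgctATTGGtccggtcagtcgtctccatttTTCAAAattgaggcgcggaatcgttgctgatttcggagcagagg
Bub1: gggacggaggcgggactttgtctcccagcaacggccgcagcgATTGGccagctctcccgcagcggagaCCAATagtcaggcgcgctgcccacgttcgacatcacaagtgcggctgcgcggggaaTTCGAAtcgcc
Ccnb1: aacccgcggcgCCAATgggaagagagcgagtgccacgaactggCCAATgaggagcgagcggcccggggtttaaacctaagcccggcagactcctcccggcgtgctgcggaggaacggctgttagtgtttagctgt

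The second set is of the 3 genes that changed least, shown for contrast with the first. *Kif23* (chr9:61946775-61946909, minus strand) and *Cdc25b* (chr2:131186838-131186972, plus strand) hold both elements near the start site, and *Pttg1* (chr11:43425957-43426091, minus strand) holds neither in its window.
Kif23: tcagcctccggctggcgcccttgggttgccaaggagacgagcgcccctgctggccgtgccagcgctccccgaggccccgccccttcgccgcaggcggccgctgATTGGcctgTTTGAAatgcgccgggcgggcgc
Cdc25b: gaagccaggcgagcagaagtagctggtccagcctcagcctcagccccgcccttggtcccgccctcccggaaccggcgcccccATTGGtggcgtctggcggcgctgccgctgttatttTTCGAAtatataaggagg
Pttg1: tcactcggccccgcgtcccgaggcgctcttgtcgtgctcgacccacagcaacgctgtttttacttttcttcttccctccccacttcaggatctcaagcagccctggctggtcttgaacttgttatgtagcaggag

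The mitosis genes were, as a group, moderately higher with G-CSF. Of the 42 genes, 30 (71.4%) were higher at an adjusted p under 0.05 (limma on log2(FPKM + 0.1), Benjamini-Hochberg over 11947 genes), against a background of 12.7% of all genes tested and 16.1% of the 6540 genes within the same range of mean FPKM. No mitosis gene was lower: the limma count was 0 at the adjusted threshold, 0 at an unadjusted p under 0.05 and 0 with limma voom on estimated reads, beside 11.5% of all genes called lower. The changes were small, with 0 genes past a 2-fold change at that adjusted p by limma or by limma voom, where the background was 1.42%. The median log2 fold change of the 42 genes was 0.28, a level 21.3% higher, and the quartiles were 0.22 and 0.36. Over all genes tested the median was 0.00 and the quartiles were -0.18 and 0.17, and over genes in the same FPKM range the median was 0.02.

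**Figure D1:**
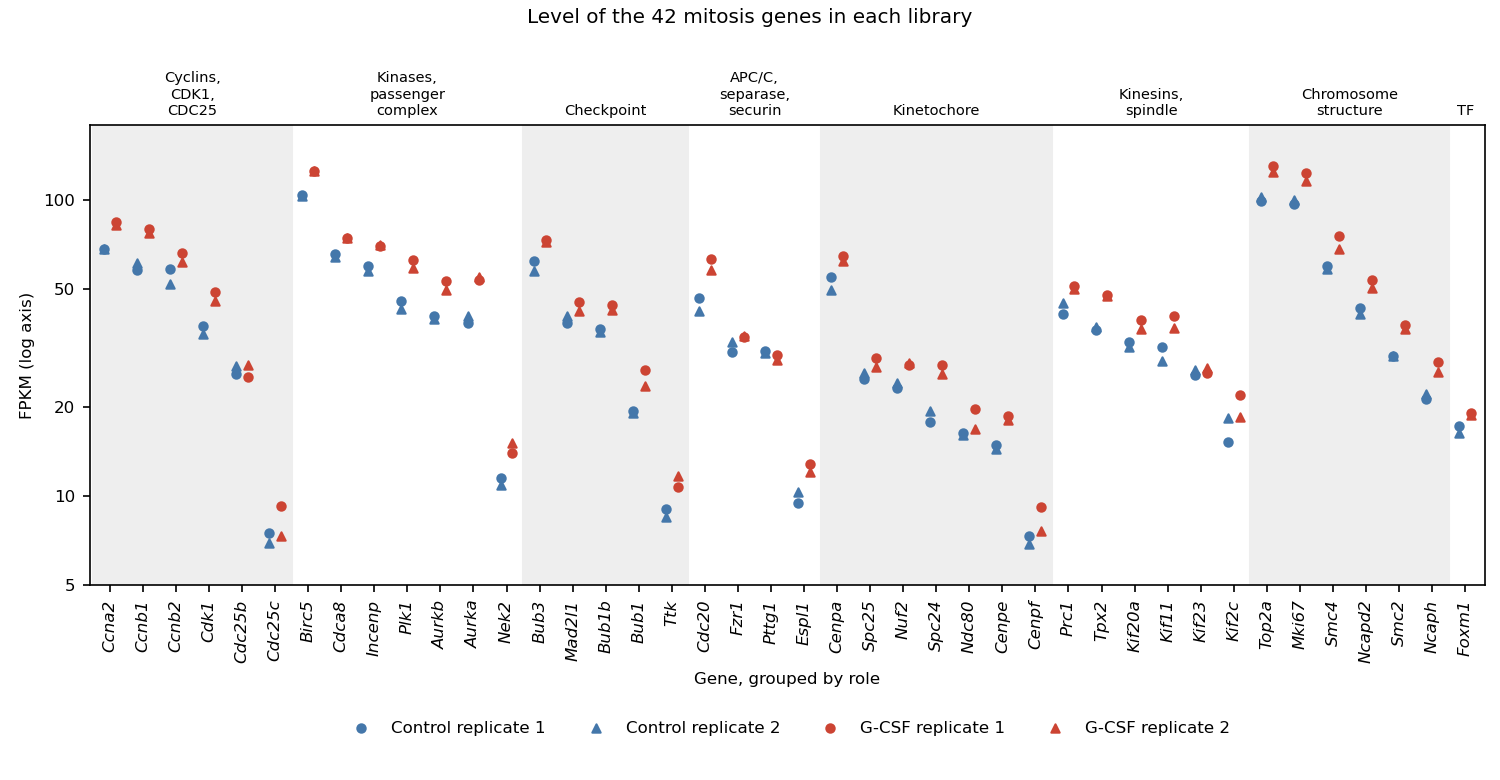
FPKM on a log axis for each of the 42 mitosis genes, grouped by role (TF, transcription factor), with 1 point per library (blue, Control; red, G-CSF; circles and triangles, replicates 1 and 2). The red points lie above the blue points in 38 genes, and *Cdc25b*, *Cdc25c* and *Kif23* overlap.

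Both G-CSF libraries stood above both Control libraries for 38 of the 42 genes (90.5%), against 33.7% of all genes tested and 38.7% of those in the same FPKM range. Both lay below for *Pttg1*, and the groups overlapped for *Cdc25b*, *Cdc25c* and *Kif23*, as the plot of FPKM by role shows. The summed FPKM of the 42 genes was 1618 and 1604 in the Control libraries against 2001 and 1922 under G-CSF, or 0.241% and 0.250% against 0.312% and 0.298% of all FPKM. The share of *S100a8* and *S100a9*, the most abundant pair, moved the other way, at 10.1% and 9.03% in the Control libraries against 7.21% and 7.15% under G-CSF, and its part in the result was not tested. In bulk RNA, more dividing cells and more mitotic RNA per dividing cell cannot be told apart. The count of 30 fell to 18 when Control replicate 2 or G-CSF replicate 1 was left out, where the share of all genes called higher was 7.75% and 6.29%, and 14 genes were called in all 4 fits that leave out a library, *Nuf2* and *Cdca8* in none.

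The counts by role that follow are each to be read against the 12.7% of all genes, and the 16.1% of genes in the same FPKM range, that were called higher. Of the 6 genes of the mitotic cyclins, CDK1 and its phosphatases, 3 were higher with G-CSF, *Ccnb1*, *Cdk1* and *Ccna2*, and *Ccnb2*, *Cdc25b* and *Cdc25c* were not called. *Ccnb1*, cyclin B1, stood at 58.0 and 61.5 FPKM in the Control libraries against 80.2 and 77.3 under G-CSF, 31.8% higher (log2 fold change 0.40, SE 0.0504, limma adjusted p = 0.00522). *Cdk1*, the mitotic kinase it activates, stood at 37.5 and 35.4 FPKM in the Control libraries against 49.0 and 45.5 under G-CSF (log2 fold change 0.38, SE 0.0592, limma adjusted p = 0.00885). Both genes had their lower G-CSF value well above their higher Control value. *Ccna2*, the S and G2 cyclin, rose by 0.28 on the log2 scale (limma adjusted p = 0.00829), from 68.7 and 68.5 to 84.2 and 82.2 FPKM. *Ccnb2*, cyclin B2, was at 58.8 and 52.1 FPKM in the Control libraries against 66.4 and 61.9 under G-CSF, with no overlap, but its adjusted p was 0.071 by limma. It passed with the replicate number as a block (limma adjusted p = 0.0099), with limma voom (adjusted p = 0.0371) and without Control replicate 1 (limma adjusted p = 0.0361), and over all alternatives its adjusted p ran from 0.0099 to 0.267. *Cdc25b* was level across the libraries (26.0 and 27.5 FPKM, then 25.3 and 27.8), with a log2 fold change of -0.01 and a 95% interval from -0.17 to 0.15. *Cdc25c*, the member with the fewest reads, was at 7.48 and 6.95 FPKM in the Control libraries against 9.26 and 7.30 under G-CSF, where the spread between the G-CSF libraries exceeded the difference (limma adjusted p = 0.318). Of the 75-base windows of *Ccnb1* transcripts, 18.9% also occur in another gene, mostly the pseudogene *Ccnb1-ps*, so its level is less certain than those of the other members, each at or under 4.40%.

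All 7 genes of the mitotic kinases and the chromosomal passenger complex were higher (median 0.36 on the log2 scale). *Aurka*, the Aurora kinase of centrosomes and spindle poles, stood at 38.6 and 40.7 FPKM in the Control libraries against 53.8 and 55.1 under G-CSF, 37.4% higher (log2 fold change 0.46, SE 0.0506, limma adjusted p = 0.00421). *Plk1*, the polo-like kinase of mitotic entry and spindle assembly, stood at 45.8 and 42.9 FPKM in the Control libraries against 62.6 and 59.1 under G-CSF (log2 fold change 0.45, SE 0.0558, limma adjusted p = 0.00511). For both kinases the gap between groups was several times the gap between replicates. *Nek2*, a kinase of centrosome separation, was at a lower level and rose from 11.5 and 10.9 to 14.0 and 15.1 FPKM (log2 fold change 0.37, limma adjusted p = 0.0173). The passenger complex corrects faulty attachments and guides cytokinesis, and its catalytic subunit *Aurkb* changed most of the 4, from 40.8 and 39.5 to 53.4 and 49.6 FPKM (log2 fold change 0.36, limma adjusted p = 0.00843). *Birc5* (survivin) had, with *Top2a*, the highest mean FPKM of the 42 genes, at 104 and 103 FPKM in the Control libraries against 125 and 126 under G-CSF (log2 fold change 0.28, limma adjusted p = 0.00731). The scaffold *Incenp* (log2 fold change 0.25, limma adjusted p = 0.0126) and the targeting subunit *Cdca8* (0.20, limma adjusted p = 0.0228) rose less, and *Cdca8* had the smallest change of the 30 genes called.

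**Figure D2:**
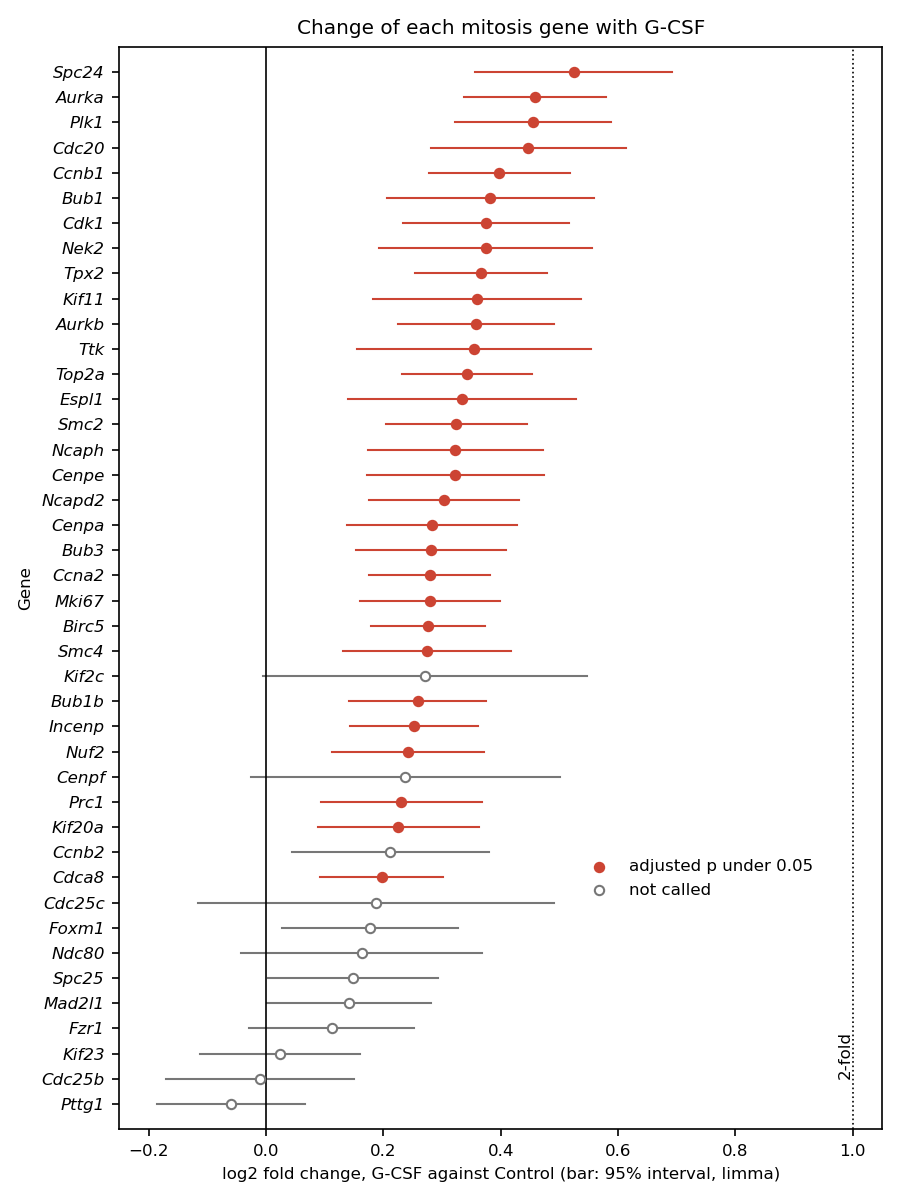
Log2 fold change of G-CSF against Control for each of the 42 mitosis genes, ordered by size, with the 95% interval from limma; filled red points passed an adjusted p under 0.05 and open points did not. The changes run from -0.06 for *Pttg1* to 0.52 for *Spc24*, and the intervals of 34 genes lie above 0.

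In the spindle checkpoint, 4 of 5 genes were higher. *Bub1*, the checkpoint kinase of kinetochores, stood at 19.4 and 19.1 FPKM in the Control libraries against 26.7 and 23.6 under G-CSF (log2 fold change 0.38, SE 0.0738, limma adjusted p = 0.015). *Ttk* (MPS1), the kinase that starts checkpoint signalling, rose from 9.02 and 8.49 to 10.8 and 11.7 FPKM (log2 fold change 0.35, limma adjusted p = 0.027). *Bub3* and *Bub1b* (BUBR1), parts of the complex that inhibits APC/C, rose by 0.28 and 0.26 on the log2 scale (limma adjusted p = 0.0142 and 0.0145). *Mad2l1* (MAD2), another part of that complex, was at 38.6 and 40.6 FPKM in the Control libraries against 45.3 and 42.1 under G-CSF. It did not pass the test at a log2 fold change of 0.14 (limma adjusted p = 0.123).

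The genes of anaphase onset differed among themselves. *Cdc20*, the APC/C coactivator of mitosis and the target of the checkpoint, stood at 46.8 and 42.2 FPKM in the Control libraries against 63.3 and 58.1 under G-CSF, 36.3% higher (log2 fold change 0.45, SE 0.0693, limma adjusted p = 0.00843). *Fzr1* (CDH1), the coactivator of mitotic exit and G1, was at 30.6 and 33.3 FPKM in the Control libraries against 34.4 and 34.6 under G-CSF (log2 fold change 0.11, limma adjusted p = 0.206). The 95% interval of *Cdc20* (0.28 to 0.61) and that of *Fzr1* (-0.03 to 0.25) did not overlap. *Espl1*, separase, which cuts cohesin, rose from 9.47 and 10.3 to 12.9 and 12.1 FPKM (log2 fold change 0.33, limma adjusted p = 0.0295). Its inhibitor securin, *Pttg1*, was at 31.03 and 30.4 FPKM in the Control libraries against 30.0 and 28.9 under G-CSF. It was the 1 member whose G-CSF libraries both lay below the Control libraries, by a log2 fold change of -0.06 with an interval from -0.19 to 0.07 (limma adjusted p = 0.443).

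The kinetochore genes held both the largest change of the 42 and several that did not pass the test. *Spc24*, a subunit of the NDC80 complex that grips microtubules, stood at 17.8 and 19.5 FPKM in the Control libraries against 27.7 and 25.9 under G-CSF, 43.9% higher (log2 fold change 0.52, SE 0.0702, limma adjusted p = 0.00585). Its partner in that complex, *Spc25*, was at 24.9 and 26.0 FPKM in the Control libraries against 29.2 and 27.3 under G-CSF (log2 fold change 0.15, limma adjusted p = 0.123). The intervals of this pair, 0.36 to 0.69 and 0.0024 to 0.29, did not overlap. The other two subunits were *Nuf2*, which rose by 0.24 on the log2 scale (limma adjusted p = 0.023), and *Ndc80* itself, at 16.4 and 16.02 FPKM in the Control libraries against 19.6 and 16.8 under G-CSF (limma adjusted p = 0.21). *Cenpe*, a kinetochore motor, rose by 0.32 (limma adjusted p = 0.0154) and *Cenpa*, the histone H3 variant of centromeres, by 0.28 (limma adjusted p = 0.0208). *Cenpf* had the lowest mean level of the 42, 7.74 FPKM, and its libraries stood at 7.30 and 6.87 in the Control libraries against 9.15 and 7.64 under G-CSF (limma adjusted p = 0.162). Both G-CSF libraries were above both Control libraries in all 7 kinetochore genes, though only 4 were called. The same held for 33.7% of all genes tested and 38.7% of those in the same FPKM range.

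Among kinesins and spindle proteins, 4 of 6 genes were higher. *Tpx2*, which activates Aurora A on the spindle, had closely matching replicates, 36.5 and 37.2 FPKM in the Control libraries against 47.7 and 47.5 under G-CSF (log2 fold change 0.37, SE 0.0467, limma adjusted p = 0.00534). *Kif11* (EG5), the motor that pushes spindle poles apart, rose from 31.9 and 28.5 to 40.5 and 37.0 FPKM (log2 fold change 0.36, limma adjusted p = 0.0185). *Prc1*, which bundles the central spindle, and *Kif20a*, a kinesin of cytokinesis, both rose by 0.23 on the log2 scale (limma adjusted p = 0.0315 and 0.034). *Kif23* (MKLP1), also a central spindle kinesin, was at 25.6 and 26.7 FPKM in the Control libraries against 26.0 and 27.2 under G-CSF. Its groups overlapped, with a log2 fold change of 0.02 and an interval from -0.11 to 0.16, the upper end of which is under the median of the 42 genes. *Kif2c* (MCAK), a microtubule depolymerase, varied between replicates in both groups, at 15.2 and 18.3 FPKM in the Control libraries against 21.9 and 18.5 under G-CSF (log2 fold change 0.27, interval -0.01 to 0.55, limma adjusted p = 0.134).

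All 6 genes of chromosome structure were higher, within a narrow range of log2 fold changes from 0.27 to 0.34. *Top2a*, the topoisomerase that untangles sister chromatids, stood at 99.3 and 103 FPKM in the Control libraries against 131 and 125 under G-CSF (log2 fold change 0.34, SE 0.0463, limma adjusted p = 0.00602). *Mki67*, the proliferation marker that coats mitotic chromosomes, stood at 97.1 and 100 FPKM in the Control libraries against 124 and 116 under G-CSF (log2 fold change 0.28, SE 0.0498, limma adjusted p = 0.0124). Neither gene overlapped between groups. The condensin ATPases *Smc2* and *Smc4* rose by 0.32 and 0.27 on the log2 scale (limma adjusted p = 0.00833 and 0.0219). The condensin I subunits *Ncaph* and *Ncapd2* rose by 0.32 and 0.30 (limma adjusted p = 0.0152 and 0.0119). *Foxm1*, the transcription factor of late cell cycle genes, was at 17.2 and 16.3 FPKM in the Control libraries against 19.1 and 18.8 under G-CSF, without overlap, and did not pass the test (log2 fold change 0.18, limma adjusted p = 0.0848). Without a filter on low values the count of higher genes was 23, where 5.43% of all genes were called higher, and the 7 calls lost were *Ttk*, *Espl1*, *Cenpa*, *Kif11*, *Kif20a*, *Prc1* and *Smc4*.

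Other genes of the same machinery were taken from lists that do not overlap the 42, to be read against the 12.7% of all genes called higher. Each of the 6 lists, from kinetochore genes to the DREAM and B-MYB complexes, held from 1 to 3 genes with a negative log2 fold change. Of 32 other kinetochore and centromere genes, 13 were higher, with a median log2 fold change of 0.26. *Pmf1*, of the MIS12 complex, rose by 0.33 (limma adjusted p = 0.012) and *Cenpk*, of the inner kinetochore, by 0.42 (limma adjusted p = 0.0225). Of 26 other spindle and cytokinesis genes, 17 were higher (median 0.31), among them *Tacc3*, a microtubule binder partnered with Aurora A (0.41, limma adjusted p = 0.00549), *Kif22*, a chromosome-bound kinesin (0.42, limma adjusted p = 0.00623), and *Ect2*, the exchange factor that starts cytokinesis (0.45, limma adjusted p = 0.00767). Of 12 other mitotic entry genes tested, 6 were higher (median 0.30). They included *Cks1b*, a small CDK partner (0.39, limma adjusted p = 0.00537), and *Cdc25a* (0.44, limma adjusted p = 0.00929), a phosphatase of the family in which *Cdc25b* and *Cdc25c* were not called. The kinase gene *Pbk* rose by 0.50 (limma adjusted p = 0.00731).

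Of 17 APC/C subunits and partners, 7 were higher, with a median of 0.18. The ubiquitin-conjugating enzymes that work with APC/C were abundant: *Ube2s* stood at 193.6 and 188.4 FPKM in the Control libraries against 236.4 and 237.6 under G-CSF, and *Ube2c* at 122.1 and 124.1 and then 153.3 and 152.5. Both enzyme genes rose by 0.31 on the log2 scale (limma adjusted p = 0.00569 and 0.00549), and the core subunit *Cdc27* rose by 0.33 (limma adjusted p = 0.0142). Of 15 cohesin and other condensin genes, 8 were higher (median 0.20), with *Smc3*, a cohesin ATPase, at 0.36 (limma adjusted p = 0.00761), *Ncapg* and *Ncapg2*, of condensin I and II, at 0.33 and 0.35 (limma adjusted p = 0.0136 and 0.0137), and the abundant cohesin gene *Rad21* at 0.19 (limma adjusted p = 0.0274). Of 12 genes of the DREAM and B-MYB complexes, which repress or activate cell cycle promoters, 5 were higher (median 0.16). *Mybl2* (B-MYB) changed most, from 21.6 and 20.7 to 31.5 and 31.6 FPKM (log2 fold change 0.58, SE 0.0551, limma adjusted p = 0.003), and *Tfdp1* and *E2f4* rose by 0.36 and 0.30 (limma adjusted p = 0.00453 and 0.00874).

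**Figure D3:**
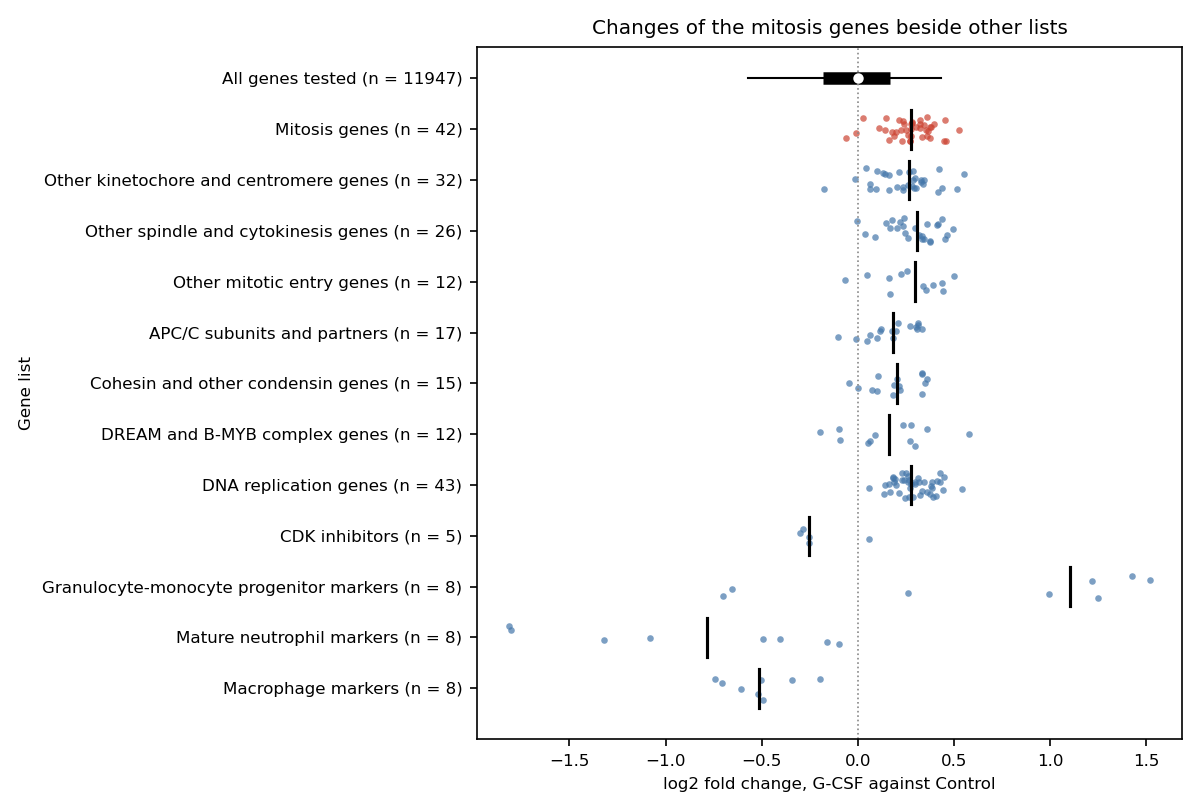
Log2 fold change of G-CSF against Control for the genes of each list that were tested, with 1 point per gene and a black line at each list's median; for all 11947 genes the bar spans the quartiles, the thin line the 5th to 95th percentile and the white point the median. The mitosis genes centre on 0.28 and the DNA replication genes on 0.28, while the CDK inhibitors centre on -0.25.

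Of 43 DNA replication genes, which act in S phase, 27 were called higher, against 12.7% of all genes tested, and all 43 had a positive log2 fold change, with a median of 0.28, the same to 2 decimals as the mitosis genes. *Mcm2* and *Mcm5*, of the replicative helicase, rose by 0.45 and 0.37 (limma adjusted p = 0.00475 and 0.00442), *Gmnn* (geminin, which blocks re-replication) by 0.43 (limma adjusted p = 0.00347) and *Pcna*, the polymerase clamp, by 0.20 (limma adjusted p = 0.0183). Of 5 CDK inhibitor genes tested, 4 had a negative log2 fold change and 1 was called lower, too few to set apart from the 11.5% of all genes called lower. This was *Cdkn1a* (p21), which stood at 196.5 and 200.3 FPKM in the Control libraries against 155.9 and 170.2 under G-CSF (log2 fold change -0.28, limma adjusted p = 0.0142). These lists are shown beside the mitosis genes in the plot of changes by list, and no difference between lists was tested.

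Markers of the cell stages in the cultures also changed with G-CSF, in both directions. Of 8 genes listed as granulocyte-monocyte progenitor markers, 5 were higher and 1 lower (all genes tested, 12.7% higher and 11.5% lower). Their summed level was 982.4 and 854.3 FPKM in the Control libraries against 2259 and 2123 under G-CSF. Most of that sum came from granule protein genes, so it is not a measure of the number of progenitors. The granule protein genes led: *Prtn3* (proteinase 3), the most abundant, rose by 1.42 on the log2 scale (limma adjusted p = 0.00114), *Mpo* (myeloperoxidase) by 1.52 (limma adjusted p = 0.000121), *Ctsg* (cathepsin G) by 1.25 (limma adjusted p = 0.000342) and *Ms4a3*, a marker of granulocyte-monocyte progenitors, by 1.22 (limma adjusted p = 0.000121). The stem and progenitor receptor *Kit* went the other way, from 11.9 and 11.1 to 6.67 and 7.36 FPKM (log2 fold change -0.70, limma adjusted p = 0.00522), and *Cd34* was at 4.53 and 4.24 FPKM and then 5.61 and 4.94 (limma adjusted p = 0.139). Of 8 genes listed as mature neutrophil markers, 6 were lower, against 11.5% of all genes. Their sum was 4452 and 4600 FPKM in the Control libraries against 2065 and 2459 under G-CSF. The granule protein genes *Ltf* and *Camp* weighed heavily in this sum, so it is not a measure of the number of mature neutrophils. *Ltf* (lactoferrin), the most abundant, had a log2 fold change of -1.32 (limma adjusted p = 0.003), and *Camp* (cathelicidin) and *Retnlg* had -1.81 each (limma adjusted p = 0.000439 and 0.00438). *Cxcr2*, the chemokine receptor of mature neutrophils, was at -0.41 (limma adjusted p = 0.0371), while *Mmp8* overlapped between groups (limma adjusted p = 0.469). The part of these shifts in the mitosis result was not tested.

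Markers of other lineages are to be read against the same 11.5% of all genes called lower. Of 8 macrophage markers, 5 were lower (sums 541.6 and 567.4, then 442.5 and 461.1 FPKM); *Cd68* was the most abundant, with a log2 fold change of -0.20 (limma adjusted p = 0.0205), and *Adgre1* (F4/80) was at -0.34 (limma adjusted p = 0.0254). Of 6 dendritic cell markers tested, 2 were lower, *Itgax* (-0.46, limma adjusted p = 0.0396) and *Cd209a* (-1.55, limma adjusted p = 0.0158), and the sums of that list were 168.8 and 137.3, then 123.5 and 90.04 FPKM. Of 6 mast cell and basophil markers tested, 5 were lower (sums 147.5 and 160.6, then 89.1 and 102.2 FPKM). They included the most abundant, *Mcpt8* (-0.61, limma adjusted p = 0.00438), and *Mcpt4* was listed at 0 throughout. Of 3 eosinophil markers tested, 2 were lower, *Prg2* (-0.72, limma adjusted p = 0.0215) and *Epx* (-0.63, limma adjusted p = 0.0164), with sums of 260.6 and 338.7, then 207.8 and 162.3 FPKM. Of 5 megakaryocyte markers tested, 1 was lower, a share near that of all genes: *Ppbp* (-0.44, limma adjusted p = 0.0102), and the most abundant, *Pf4*, was between 26.5 and 31.2 FPKM. Erythroid, T, NK and B cell markers were near 0. The 8 erythroid markers found summed to 4.39 and 2.14 FPKM in the Control libraries against 2.83 and 2.09 under G-CSF, with *Hbb-b2* on top. Sums of T and NK cell markers (2.78 and 3.04, then 1.52 and 1.29 FPKM) and of B cell markers (5.91 and 4.99, then 5.23 and 3.97 FPKM) were as low. Both T and NK cell markers tested were lower, *Cd3d* (-1.04, limma adjusted p = 0.0214) and *Cd8a* (-1.05, limma adjusted p = 0.0248), as was 1 of 3 B cell markers tested, *Cd79a* (-0.98, limma adjusted p = 0.0173). Of 9 myeloid markers, 4 were lower, among them *Itgam* (-0.35, limma adjusted p = 0.00554), the GM-CSF receptor gene *Csf2ra* (-0.45, limma adjusted p = 0.00358) and the G-CSF receptor gene *Csf3r* (-0.40, limma adjusted p = 0.0158). The part of these lineages in the mitosis result was not tested.

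The genes were picked by role, and promoters of such genes often hold the CHR and the CCAAT box, so a high share of both was foreseen. The motif counts over all promoters do not use the G-CSF values. A CHR match was found in 26 of 35 promoters (74.3%, 95% Wilson interval 57.9 to 85.8), against 19.2% of 32851 RefSeq promoters of the same length and 13.9% of promoters of the genes tested. CCAAT was found in 28 of 35 (80.0%, 64.1 to 89.96), against 37.4% and 37.7%. An E2F site, searched as TTTGGCGC or TTTCGCGC on both strands, was found in 2 of 35, those of *Cdk1* and *Ncapd2* (5.71%, against 0.813% and 1.51%). Other measures were chosen after the matches were seen. Both a CHR and a CCAAT were in 24 promoters (68.6%, against 7.52% of all and 5.69% of those of the genes tested). A CHR within 50 bases of the start site was in 22 (62.9%, against 5.31% and 3.54%). A pair of CCAAT boxes in the same orientation 31 to 33 bases apart was in 6 (17.1%, against 0.794% and 1.51%). For 32 of the 35 promoters, bases after the start site were found in an annotated transcript of the gene. They were not found for *Aurka*, *Kif2c* and *Mad2l1*. The *Kif2c* window lies inside the annotated gene, and its CHR match counts among the 26. Promoters of the same gene overlap, so they are not independent, and a match is a description of letters, not a site or a cause.

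**Figure D4:**
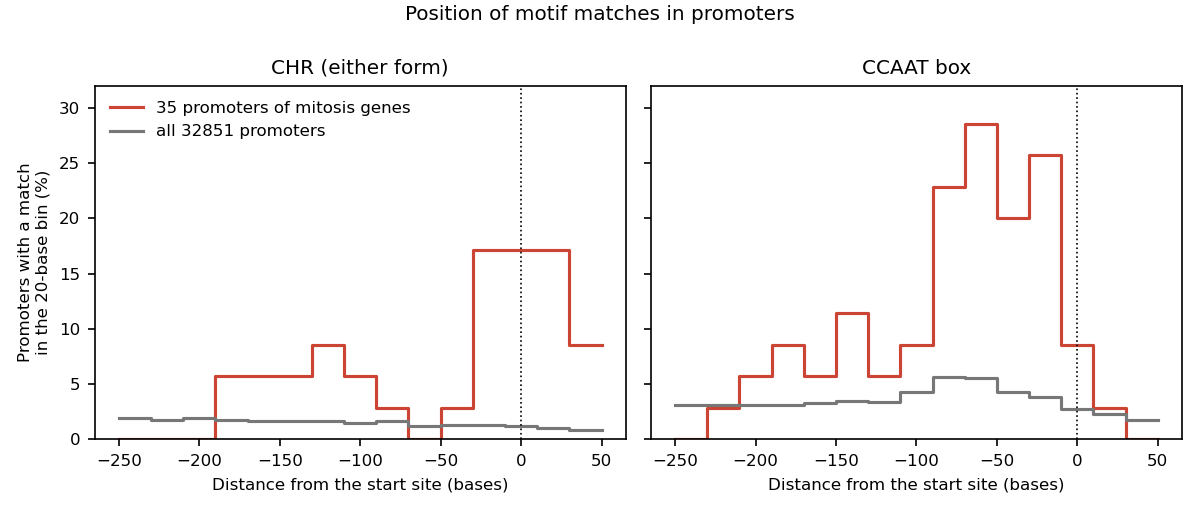
Share of promoters (in percent) with a match that starts in each bin of 20 bases, by distance from the start site (dotted line), for CHR on the left and CCAAT on the right; red, the 35 promoters of mitosis genes; grey, all 32851 promoters. CHR matches of mitosis genes peak at 17.1% per bin around the start site and CCAAT matches at 28.6% upstream of it.

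In the plot of match positions, CHR matches of the mitosis genes gathered around the start site and CCAAT matches upstream of it. Among the 24 genes with a CHR the median log2 fold change was 0.28 and 17 were called higher, and the 9 genes with a promoter but no CHR also had 0.28, with 6 called. The 26 genes with CCAAT had a median of 0.31 with 20 called, and the 7 without had 0.24 with 3 called. These medians were not tested against each other. The counts called in this paragraph are to be read against 12.7% of all genes, and 16.1% in the same FPKM range, called higher. As printed above, *Kif23* and *Cdc25b* hold both elements and were level between groups, while *Ccnb1* without a CHR match was among the 5 largest changes. The 9 genes with no promoter in the table, *Spc24* among them, had a median of 0.27 and 7 calls.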

How the data were processed

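The authors deposited 1 table of values per library. The values were taken as FPKM, made with TopHat2 2.0.13, Bowtie2 2.2.3, SAMtools 0.1.19 and Cufflinks 2.2.1 on mm10 by the submitters' processing notes. The study's methods name a stranded mRNA library kit. The annotation, and any use of strand in making the values, are not given in the sources used here. The unit was inferred from the values: 66.3% to 68.2% of low values fell within 0.05 of a whole number of reads, where an even spread gives 10%, once transcripts were shortened by 210 bases, and depth was estimated from these steps (genes of 600 to 4000 bases, up to 8 reads). Symbols were matched to GENCODE M21 (23310 of 24346) or to RefSeq synonyms (649 more).

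G-CSF was compared with Control by limma 3.58.1 (R 4.3.3; lmFit and eBayes with trend, two-sided) on log2(FPKM + 0.1), a scale that understates the change of low genes, with Benjamini-Hochberg adjustment over 11947 genes. A gene was tested with 10 or more estimated reads in each of 2 libraries and a sum of 15 or more; 1344 genes with transcripts of 300 bases or fewer and 387 unmatched genes were left out, a length limit chosen after the files were seen. The other steps ran in Python 3.11.15. Only the limma fit was tested on simulated data, where every gene was given the same spread beyond counting error. Alternatives were other scalings, filters and pseudocounts, voom, the replicate block, each library left out, and plus-strand motif matches.

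The 42 genes and all lists were chosen with earlier results of these data known. Every one of the 42 is named; of each other list, up to 3 genes with the smallest p among those called, the most abundant gene and, for cell types, the defining markers could be named. *Ly6g* was not analysed here. Of the 42 genes, 24 share no 75-base window with another gene; exons of 3 (*Top2a*, *Ncapd2*, *Foxm1*) overlap a gene on the same strand and exons of 10 (*Ccna2*, *Cdc25b*, *Cdc25c*, *Plk1*, *Nek2*, *Cdca8*, *Cdc20*, *Fzr1*, *Kif20a*, *Prc1*) a gene on the opposite strand, so reads in the overlaps are uncertain. Wilson intervals cover counting error only.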

Additional observations from a re-analysis of the deposited data

How the results depend on the processing

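The count of 30 higher mitosis genes was 30 under upper-quartile and median-ratio scaling, pseudocounts of 1 and 0.01 FPKM and both stricter filters, 23 with no filter and 32 with voom on estimated reads, where 16.5% of all genes were called higher. Leaving out a library gave 18 to 24 (24 without Control replicate 1 or G-CSF replicate 2, 18 without Control replicate 2 or G-CSF replicate 1); the lone library is then assumed to vary like the other group. In each fit that left out a library, the share of all genes called higher was also under the 12.7% of the main fit. The median log2 fold change of the mitosis genes stayed between 0.26 and 0.32 over all settings. Of the values of single genes under these settings, 493 kept their direction and side of the threshold, 44 were no longer called, 4 became called and 5 turned sign. The last were those of *Cdc25b*, 0.013 with voom and -0.076 to 0.055 with a library left out, and of *Kif23*, -0.0068 to 0.056 with a library left out. Counting matches on the plus strand alone gave CHR in 54.3% and CCAAT in 51.4% of the promoters, against 11.6% and 21.1% of all promoters. The cause of these shifts was not tested.

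The labels number the replicates but name no shared batch, and with 2 pairs the numbers alone do not pair the samples; deviations of same-numbered libraries from their group means correlated at 0.26 across genes. With the replicate number as a block, 31 mitosis genes were higher, and over all genes the counts moved from 1513 higher and 1376 lower to 2051 and 1967. With no filter they were 882 and 744.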
